A study of Homo sapiens with 15 samples.

Results

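The heat shock chaperone genes encode the proteins that fold, refold and hand over other proteins in the cytosol and the mitochondria, together with the transcription factors HSF1 and HSF2 that control many of them. The genes were chosen by symbol, as 40 named genes present in the expression tables of both myeloma lines, and all 40 were found among the 20468 genes of the tables after matching by gene ID. They comprise 2 heat shock factors, 7 genes of the HSP70 and HSP110 families, 2 cytosolic HSP90 genes, 4 mitochondrial genes, 7 subunits of the CCT chaperonin, 6 J proteins, 4 BAG proteins, 7 other cochaperones and the small heat shock protein HSPB1.

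HSP70 proteins bind unfolded stretches of a client protein in a cycle driven by ATP, which J proteins start and nucleotide exchange factors such as HSP110 and BAG proteins end. HSP90 takes over partly folded clients from HSP70 with the help of cochaperones, while HSPD1 with HSPE1 in mitochondria and CCT in the cytosol enclose clients in a chamber. Under proteotoxic stress HSF1 forms trimers that bind repeats of a short sequence, the heat shock element, in the promoters of these genes, and plasma cells are known for a heavy load of protein synthesis.

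The data are RNA-seq libraries of MM.1S and RPMI8226, both established human myeloma lines. Cells were grown alone (MONO) or in coculture with HS5 cells, an established bone marrow stromal line. In coculture they sat in the upper transwell (TSW) or in the lower chamber in contact with the HS5 cells (CO). The study's methods placed myeloma cells in both compartments, so the chamber below TSW held myeloma cells as well as HS5 cells. TSW against MONO therefore addresses exposure to soluble factors of HS5 and myeloma cells together. CO against TSW addresses added contact with stromal cells. Whether same-numbered TSW and CO libraries came from the same wells is not stated, and the main fit took them as unpaired. Per the study's methods, myeloma cells were sorted as CD90- CD38+, and a trypsin step is described for the cocultures, so that this handling and the culture condition cannot be told apart where MONO is compared.

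Each condition had 3 libraries in MM.1S and 2 in RPMI8226, which makes 15 libraries. The labels call them repeats without saying whether each came from its own culture, so the p-values measure a spread between libraries that may be technical in part. The depth, worked back from the values, was 9008909 to 19050583 pair-end tags (PETs) on genes per library. Expression is given in RPKM, the number of PETs per kilobase of transcript, scaled by the PETs on genes in the library, and tests were run on log2(RPKM + 1), a scale that understates the change of genes with a low level. In these bulk libraries, fewer cells of a type and less RNA per cell cannot be told apart.

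The libraries carried the markers of plasma cells. In MM.1S all 9 plasma cell markers checked had at least 1 RPKM in every library, and in RPMI8226 8 of 9 did, with SLAMF7 at 0.0184 to 0.104 RPKM. The B-cell marker MS4A1 was listed at 0 in all 15 libraries. Genes of stromal cells were present in CO: of 44 stromal marker genes, 34 in MM.1S and 35 in RPMI8226 were higher in every CO library than in every other library of the line.

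The summed level of the 44 stromal genes in MM.1S was 35.0, 39.5 and 39.4 RPKM in MONO, 21.5, 22.5 and 21.6 in TSW and 223, 237 and 207 in CO. In RPMI8226 the sums were 4026 and 4346 RPKM in MONO, 1707 and 1992 in TSW and 2184 and 2424 in CO, and FN1 made up most of them, with 3989.7 and 4309.9 RPKM in MONO. The collagenase gene MMP1, the most abundant of them in the CO libraries of MM.1S, was listed at 0 in every MONO and TSW library of both lines and reached 44.5, 46.9 and 41.0 RPKM in CO of MM.1S and 35.1 and 53.2 RPKM in CO of RPMI8226. THY1, which encodes the CD90 used in the sort, stood at 0.453 to 0.570 RPKM in CO of MM.1S and at 0.0767 and 0.111 RPKM in CO of RPMI8226. POSTN was listed at 0 in all CO libraries of both lines, and COL6A3 in those of RPMI8226. The part of stromal RNA in the CO values of the chaperone genes was not tested.

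Some libraries stood apart from the rest. RPS14P3, a processed pseudogene, had 84.2 RPKM in MONO replicate 2 of MM.1S and 2.20 to 5.83 RPKM in the other 8 libraries of the line, and it had 94.8 and 93.6 RPKM in the TSW libraries of RPMI8226 against 4.78 to 6.44 in the other 4. The mitochondrial tRNA gene trnN was low in the same 3 libraries, at 1.44 RPKM in MONO replicate 2 of MM.1S and at 2.22 and 1.53 RPKM in TSW of RPMI8226, against 362 to 587 RPKM and 82.3 to 228 RPKM in the others of each line. In RPMI8226 the 2 libraries are the whole TSW condition, so the difference in libraries and the condition cannot be told apart there, while CO against MONO compares none of them. MONO replicate 1 of MM.1S had the lowest depth and a summed RPKM of 489898, against 427631 to 439368 in the other 8 libraries of the line.

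Near-identical copies share reads, and 23 of the 40 genes have RefSeq pseudogenes named after them, among them HSPE1 with 28, HSPD1 and ST13 with 22 each and HSPA8 with 20. The neighbours HSPA1A and HSPA1B are almost identical in sequence, and their separate levels are uncertain.

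A gene was called higher or lower at a Benjamini-Hochberg adjusted p under 0.05 in limma, adjusted over all tested genes, and a fold change over 1.5. Tested genes had a mean of at least 1 RPKM in the line, which left 10153 genes and all 40 chaperone genes in MM.1S, and 10319 genes and 39 chaperone genes in RPMI8226. HSPA4L was the gene not tested in RPMI8226. The tables of the lines were normalized separately, tests were made within a line, and no difference between the lines was tested.

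In MM.1S HSPA8, the constitutive cytosolic HSP70, fell in both TSW and CO, and the J protein gene DNAJB6 fell in TSW. In RPMI8226 27 of 39 tested genes were called lower in TSW and 30 in CO, beside 17.9% and 22.9% of all tested genes. Both comparisons share the MONO libraries, and the TSW libraries stood apart by RPS14P3 and trnN. HSP90AA1, HSPH1, HSPE1, HSPD1 and HSPA8 were called lower in each. HSP90AA1 had 1031 and 983 RPKM in MONO and 188 to 199 RPKM in the 4 other libraries. DNAJB4, a J protein gene, rose in CO of RPMI8226, whose libraries also carried genes of stromal cells.

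**Figure D1:**
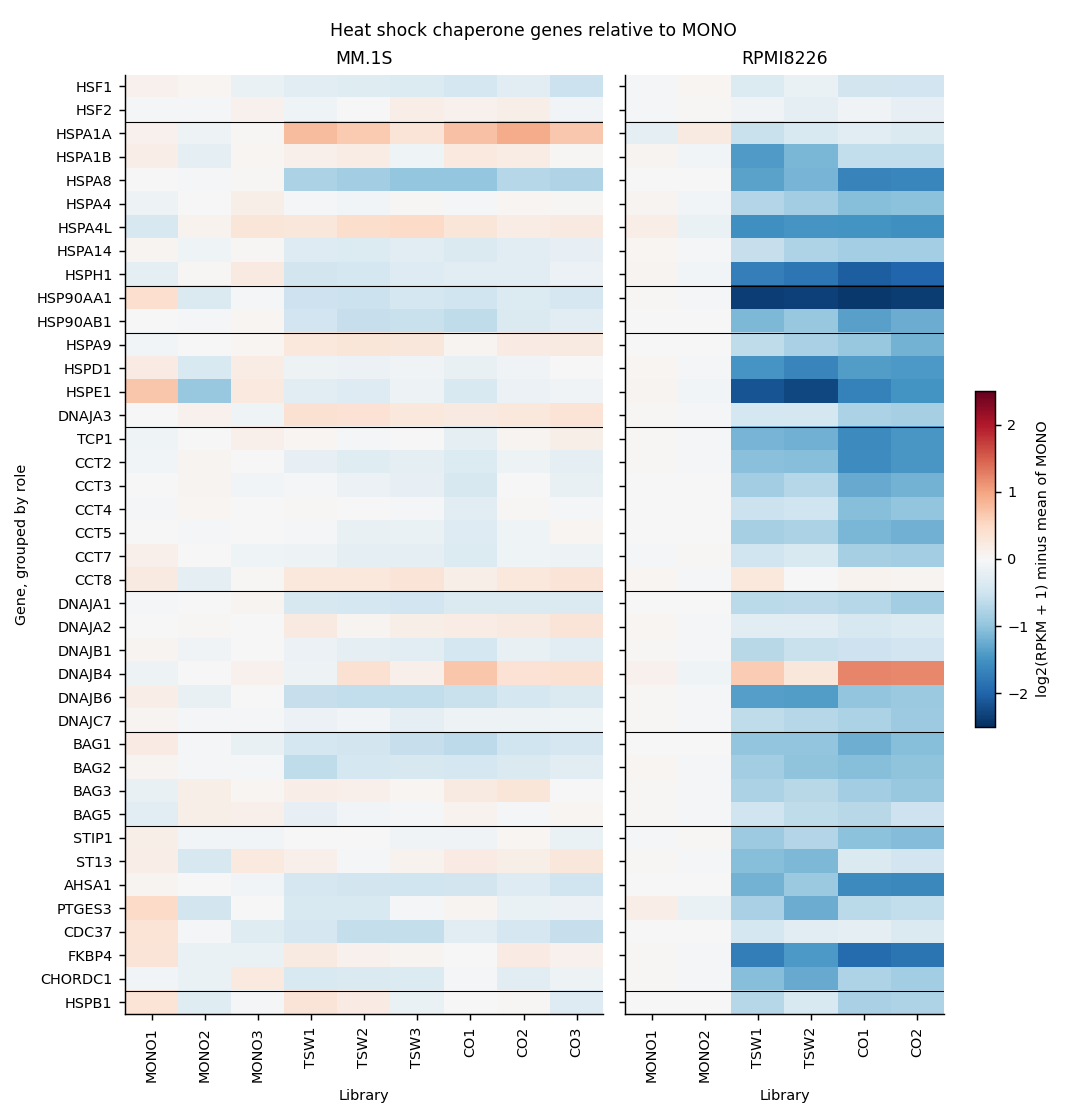
Each of the 40 chaperone genes (rows, grouped by role) in each library (columns), as log2(RPKM + 1) minus the mean of the MONO libraries of the line, with MM.1S on the left and RPMI8226 on the right. The TSW and CO columns of RPMI8226 are blue for most genes, with DNAJB4 in red, and the MM.1S panel is paler.

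In MM.1S TSW against MONO, 1 chaperone gene of 40 was called higher and 2 lower, while 6.48% of all tested genes were called higher and 4.16% lower, shares near enough to make the counts no result about the list. The gene called higher, HSPA1A, reached the level for testing only through TSW and CO. At an adjusted p under 0.05 with no fold change threshold, 3 were higher and 13 lower, beside 14.4% and 12.9% of all tested genes. The median log2 fold change of the 40 genes was -0.13, with 26 of them below 0, and that of all tested genes was 0.01. HSPA8 was called lower with each library left out in turn and in every other alternative, at -0.92 to -0.83, while the other calls changed with single libraries. The count of genes called lower was 1 without MONO replicate 1 and 4 without MONO replicate 2, and the count called higher was 0 without MONO replicate 2, TSW replicate 1 or TSW replicate 2. With median-of-ratios scaling of the libraries the count called higher was also 0.

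In MM.1S CO against MONO, 1 gene was called higher and 1 lower, beside 7.13% and 4.65% of all tested genes. The counts are no result about the list. The gene called higher, HSPA1A, reached the level for testing only through TSW and CO, so its call was in part built in. With no fold change threshold 4 were higher and 10 lower, beside 16.2% and 15% of all. The median of the 40 genes was -0.11, and 26 lay below 0, while the median of all tested genes was 0.01. The count called lower was 3 without MONO replicate 2, when HSPE1 and HSP90AA1 were called, and 2 without MONO replicate 3, when BAG1 was. The median without MONO replicate 2 was -0.18. With a correction for GC content and length, the count called lower was 3 in CO, with HSPA14 and BAG2 added, and 5 in TSW, with HSPH1, BAG2 and CHORDC1 added.

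In MM.1S CO against TSW, limma called 0 chaperone genes higher and 0 lower, where 0.374% of all tested genes were called higher and 0.0394% lower. The counts were also 0 and 0 with no fold change threshold, beside 0.384% and 0.0492% of all. At an unadjusted p under 0.05, 1 chaperone gene was higher, DNAJB4, and 0 were lower, and voom called 0 in each direction. The median of the 40 genes was 0.03 and that of all tested genes 0. Over all tested genes 38 were called higher and 4 lower, but 118 and 2 with no filter on low values, 5 and 2 at a mean of at least 5 RPKM and 43 and 11 with MONO left out of the fit. The count lower ran from 2 to 8 with 1 library left out in turn.

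In RPMI8226 TSW against MONO, 27 of 39 chaperone genes were called lower, beside 17.9% of all tested genes, and 0 were called higher by limma, beside 14.5% of all. At an unadjusted p under 0.05, 1 gene was higher, and voom called 0 higher and 29 lower. With no fold change threshold 36 were lower and 1 higher, beside 38% and 29% of all tested genes. The median of the 39 genes was -0.81, with 37 below 0, and that of all tested genes was -0.08. Without TSW replicate 2, 1 gene was called higher, DNAJB4 at a log2 fold change of 0.64. Over all tested genes 1500 were called higher and 1852 lower, but 1710 and 1538 with median-of-ratios scaling, when 25 chaperone genes were called lower, and 1727 and 1496 after correction for length, with 25 chaperone genes lower again.

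In RPMI8226 CO against MONO, 30 genes were called lower and 1 higher, beside 22.9% and 16.4% of all tested genes. With no fold change threshold 35 were lower and 1 higher, beside 41.7% and 30.3% of all. The median of the 39 genes was -0.91, with 37 below 0, and that of all tested genes was -0.09. With the TSW libraries left out of the fit altogether, the counts were again 30 lower and 1 higher. Over all tested genes the 1693 higher and 2363 lower became 1994 and 1925 with median-of-ratios scaling and 2028 and 1776 after correction for length, when 27 and 26 chaperone genes were called lower. These comparisons share the MONO libraries: 25 genes were called lower in both, 5 in CO alone (BAG5, CCT4, CCT7, DNAJA3 and HSPB1) and 2 in TSW alone (ST13 and DNAJB1). The share of all tested genes called lower in both was not counted, so nothing about the list is read from this overlap. The genes called in no comparison of RPMI8226 were CCT8, CDC37, DNAJA2, HSF1, HSF2 and HSPA1A.

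In RPMI8226 CO against TSW, 4 genes were called higher, HSPA1B, ST13, DNAJB4 and HSPE1, beside 1.9% of all tested genes, and limma called 0 lower, beside 2.39% of all. At an unadjusted p under 0.05, 7 were higher and 18 lower, and voom called 4 higher and 0 lower. With no fold change threshold 6 were higher and 15 lower, beside 10.1% and 17.5% of all. The median was -0.17 for the 39 genes and -0.04 for all. The count called higher was 2 without TSW replicate 2, the count called lower was 1 without TSW replicate 1, and with no filter on low values the count called higher was 1. Over all tested genes, 196 were called higher and 247 lower, and after a correction for GC content and length 210 and 97. The same counts were 383 and 335 without TSW replicate 1, 132 and 187 without TSW replicate 2 and 260 and 98 after correction for length. Of the 4 genes called higher, HSPA1B, ST13 and HSPE1 were lowest of the conditions in TSW, whose libraries stood apart by RPS14P3 and trnN, and lowest of the MM.1S libraries in MONO replicate 2, which stood apart in the same way. DNAJB4 was not lowest in these libraries. The part of the library difference in the calls was not tested.

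**Figure D2:**
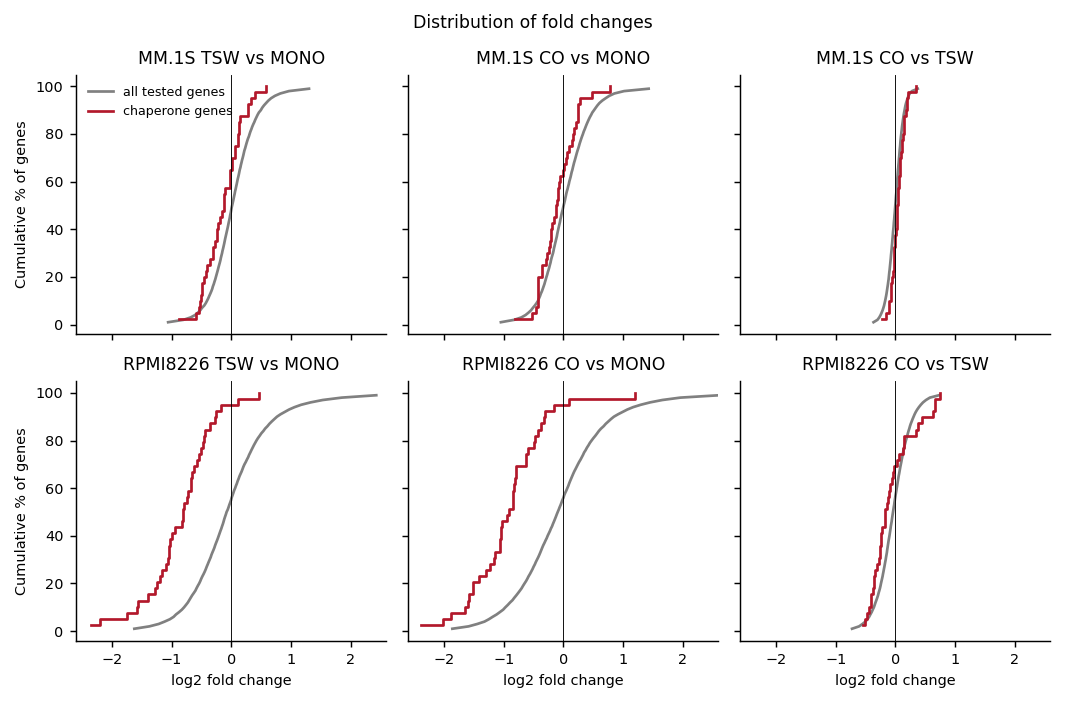
Cumulative share of genes (vertical axis, %) against log2 fold change (horizontal axis) in each of the 6 comparisons, for the chaperone genes in red and for all tested genes, from the 1st to the 99th percentile, in grey. In RPMI8226 TSW and CO against MONO the red line lies to the left of the grey one, with medians of -0.81 and -0.91 against -0.08 and -0.09, and in MM.1S the medians were -0.13 and -0.11 against 0.01.

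Most genes were lower in RPMI8226 among those with pseudogenes and among those without. Of the 23 with pseudogenes 18 were called lower in TSW, with a median of -1, and of the 16 tested genes without them 9 were, with a median of -0.67, beside 17.9% of all tested genes. In CO the counts were 19 of 23 and 11 of 16, beside 22.9% of all, with medians of -1.06 and -0.83. The 18 genes with a mean of at least 100 RPKM had medians of -0.92 in TSW and -1.15 in CO, and the 21 below that level -0.68 and -0.81.

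The promoters are shown as a description of sequence, and a part of HSF1 in the fold changes was not tested. RefSeq promoters of GRCh38.p14, taken as the 250 bases before each start, were matched to 36 of the 40 genes with 52 starts between them, and a gene counted once if any start had a match. A heat shock element of 3 units, GAA and TTC in turn with 2 bases between them, searched in both orders and on both strands, was found in 6 of 36 genes and in 0.441% of 35116 promoters. The shorter form of 2 units, GAANNTTC or TTCNNGAA, which lies within the longer one, was found in 16 of 36 genes and in 11.6% of promoters. The genes and the promoters differ in unit, since a gene could match at any of its starts and each promoter was counted singly. Their shares are therefore not compared. Sequences of the genes with the longer form run 5′ to 3′ on the strand of the gene, with the matches in capitals, and stay outside annotated exons or are limited to a site of 30 bases. HSPA8 is shown at chr11:123062345-123062374 on the minus strand, HSPD1 at chr2:197500061-197500090 on the minus strand, HSP90AA1 at chr14:102087045-102087294 on the minus strand, HSP90AB1 at chr6:44247693-44247865 on the plus strand, DNAJB6 at chr7:157336774-157336965 on the plus strand and CHORDC1 at chr11:90223078-90223152 on the minus strand.
HSPA8: gcgagcttGAAAGTTCCAGAAcgctgcggt
HSPD1: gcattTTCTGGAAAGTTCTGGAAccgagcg
HSP90AA1: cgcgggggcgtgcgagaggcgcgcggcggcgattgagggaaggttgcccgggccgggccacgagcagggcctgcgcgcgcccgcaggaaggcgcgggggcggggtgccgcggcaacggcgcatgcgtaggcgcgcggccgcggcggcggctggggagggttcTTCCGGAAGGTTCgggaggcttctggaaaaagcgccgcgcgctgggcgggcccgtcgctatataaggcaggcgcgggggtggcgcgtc
HSP90AB1: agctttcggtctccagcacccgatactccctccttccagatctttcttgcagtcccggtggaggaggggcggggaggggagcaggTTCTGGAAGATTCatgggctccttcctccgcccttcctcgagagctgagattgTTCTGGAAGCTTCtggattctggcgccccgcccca
DNAJB6: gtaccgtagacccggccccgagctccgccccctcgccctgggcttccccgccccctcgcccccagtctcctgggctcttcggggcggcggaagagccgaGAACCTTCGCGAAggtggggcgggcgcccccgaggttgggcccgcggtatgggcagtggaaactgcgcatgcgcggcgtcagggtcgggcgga
CHORDC1: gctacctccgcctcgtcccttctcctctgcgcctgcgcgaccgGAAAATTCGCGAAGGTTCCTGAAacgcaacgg
A match is a description of the letters. The longer form was not found in the stress-inducible genes HSPA1A and HSPA1B, nor in DNAJB1 or BAG3. The search therefore does not sort genes by their response to stress. HSPA8 has 2 matches in the 250 bases, of which 1 is shown. All 6 genes were called lower in both TSW and CO against MONO in RPMI8226, with log2 fold changes from -2.35 to -1.04 in TSW and from -2.39 to -0.82 in CO. In MM.1S they lay between -0.87 and -0.12 in TSW and between -0.81 and -0.09 in CO. They are among the 25 of 39 chaperone genes called lower in both comparisons of RPMI8226. Of all tested genes 17.9% were called lower in TSW and 22.9% in CO, each for 1 comparison, and the share lower in both was not counted. Of the genes with only the shorter form, HSPA1B, DNAJA1, BAG2, TCP1 and CCT2 were called lower in both cocultures of RPMI8226, HSPB1 in CO alone and DNAJB1 in TSW alone, while DNAJB4 was called higher in CO, HSPA1A was not called and HSPA4L was not tested. HSF1, HSPA14, FKBP4 and ST13 had no promoter entry.

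HSF1, the main activator of the heat shock response, had 81.8, 77.7 and 67.3 RPKM in MONO, 61.9, 60.8 and 58.9 in TSW and 55.0, 62.4 and 51.3 in CO of MM.1S. The MONO libraries were above all TSW and CO libraries, with log2 fold changes of -0.31 (SE 0.10, adjusted p = 0.0432) in TSW and -0.42 (SE 0.10, adjusted p = 0.0111) in CO, neither over the fold change threshold. Over the alternatives they ran from -0.39 to -0.18 in TSW, with adjusted p up to 0.134, and from -0.50 to -0.18 in CO, with adjusted p up to 0.0756. In RPMI8226 HSF1 had 46.0 and 49.0 RPKM in MONO, 37.1 and 42.2 in TSW and 34.1 and 33.7 in CO. MONO was again above the rest without overlap, and the log2 fold changes of -0.25 and -0.47 stayed under the threshold. Over the alternatives they ran from -0.34 to -0.11 in TSW, with adjusted p up to 0.179, and from -0.52 to -0.11 in CO, with adjusted p up to 0.093. HSF2, a related factor, had 9.12, 9.08 and 10.2 RPKM in MONO, 8.70, 9.32 and 10.7 in TSW and 10.2, 10.6 and 8.95 in CO of MM.1S and 4.53 and 4.80 in MONO, 4.30 and 3.75 in TSW and 4.33 and 3.91 in CO of RPMI8226. Its conditions overlapped in MM.1S and its MONO libraries lay just above the others in RPMI8226, and it passed no test.

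**Figure D3:**
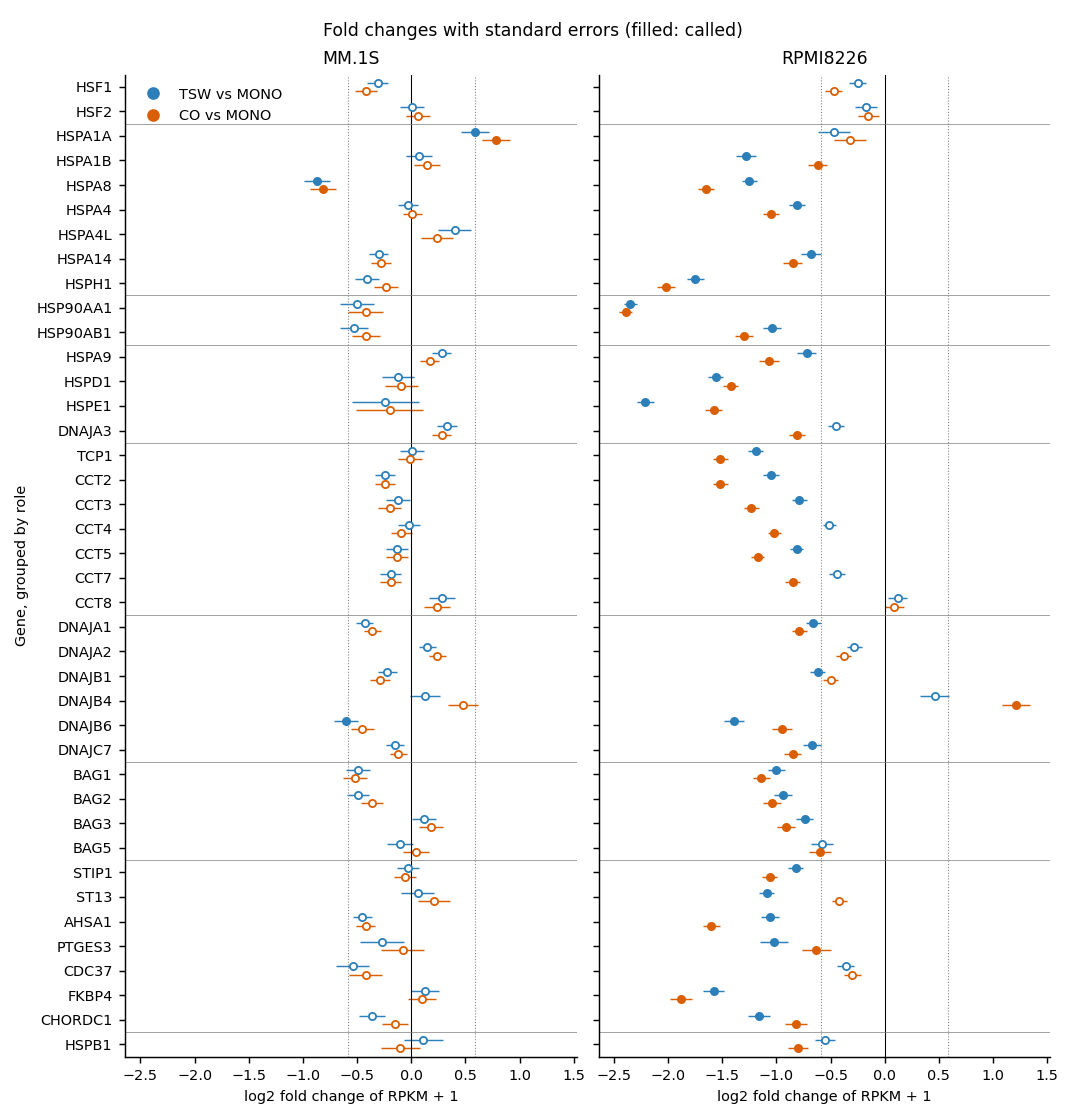
Log2 fold change of RPKM + 1 (horizontal axis) of each chaperone gene (vertical axis, grouped by role) in TSW and CO against MONO, with standard errors, filled where the gene was called and dotted lines at a fold of 1.5. In MM.1S the filled points are HSPA8, HSPA1A and DNAJB6, and in RPMI8226 they run from -2.39 for HSP90AA1 to 1.21 for DNAJB4 in CO.

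HSPA8 (gene ID 3312) lies on chromosome 11 and is the HSP70 of the unstressed cytosol. Its levels in MM.1S were 1356, 1307 and 1379.8 RPKM in MONO, 783, 733 and 692 in TSW and 691, 827 and 796 in CO. Every MONO library was far above every TSW and CO library, and TSW and CO overlapped. HSPA8 fell to a ratio of means of 0.546 in TSW and 0.572 in CO, with log2 fold changes of -0.87 (SE 0.12, adjusted p = 0.000373) and -0.81 (SE 0.12, adjusted p = 0.000613).

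In RPMI8226 HSPA8 had 1515 and 1491 RPKM in MONO, 594 and 669.9 in TSW and 474 and 484 in CO. MONO was highest, TSW intermediate and CO lowest, with no overlap between the conditions. It fell by 1.25 on the log2 scale in TSW and by 1.65 in CO, with adjusted p = 1.94e-07 and 2.27e-08. By mean level it was the gene of rank 25 among 20468 in MONO, rank 92 in TSW and rank 113 in CO. CO against TSW gave -0.40 (SE 0.07, adjusted p = 0.00371), under the fold change threshold.

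HSPA1A and HSPA1B, the stress-inducible HSP70 genes, lie side by side on chromosome 6. HSPA1A in MM.1S had 0.777, 0.519 and 0.683 RPKM in MONO, 1.88, 1.60 and 1.07 in TSW and 1.74, 2.17 and 1.64 in CO, from 17, 24 and 22 PETs in MONO, 65, 59 and 34 in TSW and 68, 81 and 55 in CO. Its level was low throughout, and every TSW and CO library was above every MONO library. MONO lay below the 1 RPKM needed for testing, which the gene reached only through TSW and CO, so a difference was in part built in and no rise is read from its tests. The log2 fold changes were 0.59 (SE 0.13, adjusted p = 0.00856) in TSW and 0.78 (SE 0.13, adjusted p = 0.00176) in CO. With no filter on low values, where every gene was tested, it was also called higher, at an adjusted p of 0.0405 in TSW and 0.0126 in CO. The TSW call sits at the threshold: the log2 fold change was 0.53 without MONO replicate 2, 0.48 without TSW replicate 1, 0.56 without TSW replicate 2 and 0.58 with median-of-ratios scaling, none of them called. HSPA1B in MM.1S had 22.6, 17.0 and 20.7 RPKM in MONO, 22.0, 23.0 and 18.5 in TSW and 23.8, 22.7 and 20.5 in CO, levels that overlapped between all conditions.

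In RPMI8226 HSPA1A had 1.35 and 2.17 RPKM in MONO, 0.844 and 1.10 in TSW and 1.26 and 1.12 in CO, with MONO above the others and no call. Without MONO replicate 1 it was called lower in TSW at -0.69, with an adjusted p of 0.00197 and a range from 0.00197 to 0.152 over the alternatives, and it was also called with a pseudocount of 0.1, at -0.77, and by voom, at -0.85. HSPA1B had 76.7 and 70.3 RPKM in MONO, 27.0 and 32.5 in TSW and 47.3 and 47.7 in CO. MONO was highest, CO intermediate and TSW lowest, without overlap. HSPA1B fell in TSW at -1.28 (SE 0.09, adjusted p = 8.58e-07) and in CO at -0.62 (SE 0.09, adjusted p = 0.000132), and was called higher in CO against TSW at 0.66 (SE 0.09, adjusted p = 0.000925). The CO call ended without MONO replicate 1, at -0.56, with median-of-ratios scaling, at -0.51, and after correction for length, at -0.40, or for GC content and length, at -0.33. The CO against TSW call ended without TSW replicate 1, at 0.53, and with no filter on low values, at an adjusted p of 0.0648, the highest over the alternatives, where the lowest was 3.29e-05.

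HSPH1, the HSP110 protein that exchanges the nucleotide of HSP70, was among the genes with the lowest fold changes in RPMI8226. There it had 78.3 and 70.8 RPKM in MONO, 22.2 and 20.7 in TSW and 17.2 and 18.0 in CO. The MONO libraries were several times above the others, and CO lay below TSW. HSPH1 fell with log2 fold changes of -1.75 (SE 0.08, adjusted p = 3.65e-08) in TSW and -2.02 (SE 0.08, adjusted p = 1.06e-08) in CO. In MM.1S it had 31.1, 37.7 and 43.1 RPKM in MONO, 26.7, 26.9 and 29.2 in TSW and 30.8, 30 and 33.4 in CO, with TSW below MONO, an overlap of CO with MONO and no call, except after correction for GC content and length, at -0.63 in TSW.

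HSPA4, a further protein of the HSP110 type, had 165 and 151 RPKM in MONO, 94.3 and 85.8 in TSW and 74.5 and 77.4 in CO of RPMI8226. MONO was above TSW and TSW above CO, and HSPA4 fell at -0.81 (SE 0.07, adjusted p = 5.63e-06) and -1.05 (SE 0.07, adjusted p = 5.86e-07). In MM.1S its log2 fold changes were -0.03 and 0.01, and over the alternatives they ran from -0.16 to 0.04 in TSW and from -0.19 to 0.08 in CO, with no call. HSPA14, a ribosome-associated HSP70, had 22.6 and 21.1 RPKM in MONO, 14.4 and 12.3 in TSW and 11.6 and 11.7 in CO of RPMI8226, and the groups did not overlap. It fell at -0.68 (SE 0.09, adjusted p = 7.82e-05) in TSW and -0.85 (SE 0.09, adjusted p = 1.1e-05) in CO, and the TSW call ended without TSW replicate 2, at -0.57.

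HSPA4L, of the same type as HSPA4, was below the level for testing in RPMI8226. It had 2.90 and 2.14 RPKM in MONO, 0.208 and 0.265 in TSW and 0.236 and 0.217 in CO, and both MONO libraries stood above the rest. With no filter on low values it was tested and called lower in both cocultures against MONO. That made 28 of 40 chaperone genes lower in TSW, beside 1889 of all 20468 genes, of which only 10319 reached the level for testing. With the filter it was 27 of 39, beside 1852 of 10319. In CO the count with no filter was 30 of 40, beside 2439 of all 20468 genes, since PTGES3 lost its call. In MM.1S it had 13.0, 18.5 and 21.8 RPKM in MONO, 21.5, 23.8 and 24.7 in TSW and 21.8, 19.9 and 20.5 in CO, with overlapping conditions and log2 fold changes of 0.40 (adjusted p = 0.0724) in TSW and 0.24 (adjusted p = 0.246) in CO.

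**Figure D4:**
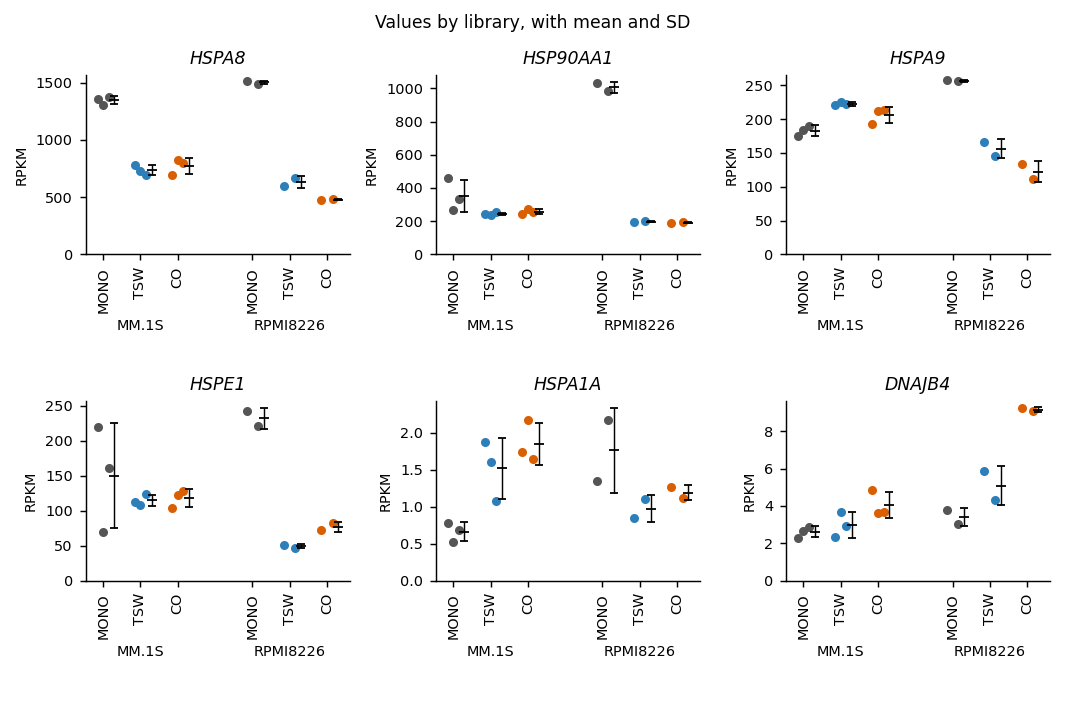
RPKM (vertical axis, from 0) of HSPA8, HSP90AA1, HSPA9, HSPE1, HSPA1A and DNAJB4 in every library of both lines, 1 point a library, with mean and SD beside the points. HSPA8 is lower in TSW and CO than in MONO in both lines, HSP90AA1 drops to under 200 RPKM in TSW and CO of RPMI8226, and 1 MONO library of MM.1S has 70.0 RPKM of HSPE1 against 161 and 219.7 in the others.

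HSP90AA1 (gene ID 3320, chromosome 14), the inducible cytosolic HSP90, had 1031 and 983 RPKM in MONO, 195 and 199 in TSW and 188 and 193 in CO of RPMI8226. Both MONO libraries were several times above the 4 others, and CO lay only just below TSW. HSP90AA1 fell by 2.35 on the log2 scale in TSW and by 2.39 in CO, with SE 0.06 for each and adjusted p = 1.13e-09 and 7.76e-10, and the ratio of means of MONO over CO was 5.28. Its rank by mean level was 49 of 20468 in MONO, 291 in TSW and 280 in CO. CO against TSW gave a log2 fold change of -0.05 (SE 0.06, adjusted p = 0.616).

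In MM.1S HSP90AA1 had 458, 267 and 331 RPKM in MONO, 241, 235 and 252 in TSW and 243, 272 and 255 in CO. The MONO libraries were widely spread, with replicate 1 far above the others, and the lowest of them overlapped with CO. The log2 fold changes were -0.50 (SE 0.16, adjusted p = 0.043) in TSW and -0.42 (SE 0.16, adjusted p = 0.0709) in CO, and the gene was not called. Without MONO replicate 2 it was called lower, at -0.68 in TSW and -0.60 in CO, and without MONO replicate 1 it was not, at -0.29 and -0.21. The adjusted p ran from 0.00758 to 0.145 in TSW and from 0.0129 to 0.185 in CO over the alternatives.

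HSP90AB1, the constitutive cytosolic HSP90 on chromosome 6, had 1273 and 1276 RPKM in MONO, 582 and 664 in TSW and 498 and 537 in CO of RPMI8226. MONO was above TSW and TSW above CO without overlap. HSP90AB1 fell at -1.04 (SE 0.08, adjusted p = 1.23e-06) in TSW and -1.30 (SE 0.08, adjusted p = 1.7e-07) in CO. In MM.1S it had 1188, 1163 and 1229 RPKM in MONO, 861, 803 and 810.0 in TSW and 764, 931 and 988 in CO, with every MONO library above every other. The log2 fold changes there, -0.53 (SE 0.13, adjusted p = 0.0105) and -0.42 (SE 0.13, adjusted p = 0.0267), stayed under the fold change threshold.

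The mitochondrial chaperonin is made of HSPD1 and its lid HSPE1, whose genes stand head to head on chromosome 2 with 104 bases between them. HSPD1 had 837 and 783 RPKM in MONO, 291 and 258 in TSW and 306 and 297 in CO of RPMI8226. MONO was far above both cocultures, and CO was slightly above TSW. HSPD1 fell at -1.56 (SE 0.07, adjusted p = 5.6e-08) in TSW and -1.42 (SE 0.07, adjusted p = 7.02e-08) in CO. HSPE1, whose exons are shared with the read-through gene HSPE1-MOB4 so that its level is uncertain, had 243 and 222 RPKM in MONO, 51.5 and 47.3 in TSW and 71.8 and 82.1 in CO of RPMI8226. It was highest in MONO, lowest in TSW and intermediate in CO, without overlap, and fell at -2.21 (SE 0.08, adjusted p = 1.18e-08) and -1.58 (SE 0.08, adjusted p = 8.01e-08). CO against TSW was called higher at 0.63 (SE 0.08, adjusted p = 0.000855), a call that ended without TSW replicate 2, at 0.57, without CO replicate 2, at 0.53, and with no filter, at an adjusted p of 0.0612 within a range from 5.02e-05 to 0.0612.

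In MM.1S HSPD1 had 609, 405 and 598 RPKM in MONO, 481, 477 and 499.7 in TSW and 465, 494 and 530.3 in CO, and HSPE1 had 219.7, 70.0 and 161 RPKM in MONO, 113, 108 and 124 in TSW and 104, 122 and 128 in CO. MONO replicate 2, the library that stood apart by RPS14P3, was the lowest MONO library for both genes, and the conditions overlapped. HSPE1 was not called, at -0.24 (SE 0.31, adjusted p = 0.601) in TSW and -0.20 (SE 0.31, adjusted p = 0.65) in CO. Without MONO replicate 2 it was called lower, at -0.71 and -0.67, and without MONO replicate 1 it stood above 0, at 0.11 in TSW and 0.15 in CO, with no call. The adjusted p ran from 0.00805 to 0.914 in TSW and from 0.0102 to 0.976 in CO over the alternatives.

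HSPA9, the mitochondrial HSP70 that pulls imported proteins into the matrix, had 258 and 256 RPKM in MONO, 166 and 146 in TSW and 133 and 112 in CO of RPMI8226. MONO was highest and CO lowest, without overlap, and HSPA9 fell at -0.72 (SE 0.09, adjusted p = 4.97e-05) in TSW and -1.07 (SE 0.09, adjusted p = 2.1e-06) in CO. The MM.1S libraries had 175, 184 and 190.2 RPKM in MONO, 220.4, 226 and 222 in TSW and 193, 212 and 213 in CO. Every coculture library there was above every MONO library, with log2 fold changes of 0.28 (SE 0.09, adjusted p = 0.0357) and 0.17 (SE 0.09, adjusted p = 0.164), neither called.

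DNAJA3, the J protein partner of HSPA9, had 52.5 and 50.3 RPKM in MONO, 37.4 and 37.6 in TSW and 29.3 and 28.5 in CO of RPMI8226. The order was MONO, TSW, CO from high to low, and DNAJA3 fell in CO at -0.81 (SE 0.07, adjusted p = 2e-06), a call that ended after correction for GC content and length, at -0.53. In MM.1S it had 45.5, 49.1 and 42.2 RPKM in MONO, 59.4, 59.1 and 54.5 in TSW and 53.5, 54.9 and 58.1 in CO, with both cocultures above MONO and log2 fold changes of 0.33 and 0.28 under the threshold. Of the 4 mitochondrial genes, 3 were called lower in TSW and 4 in CO of RPMI8226, beside 17.9% and 22.9% of all tested genes, with medians of -1.14 and -1.25 beside -0.08 and -0.09.

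CCT folds actin and tubulin in the cytosol, and 7 of its subunit genes are in the list. In RPMI8226 4 were called lower in TSW and 6 in CO, beside 17.9% and 22.9% of all tested genes, with medians of -0.79 and -1.17. TCP1 had 408 and 396 RPKM in MONO, 178 and 174 in TSW and 133 and 145 in CO, CCT2 had 214 and 203 in MONO, 101 and 99.4 in TSW and 69.5 and 75.2 in CO, and CCT5 had 129 and 126 in MONO, 71.4 and 73.3 in TSW and 57.2 and 55.1 in CO. For each of these genes MONO was above TSW and TSW above CO. TCP1 fell in CO at -1.52 (SE 0.07, adjusted p = 2.3e-08) and CCT2 at -1.52 (SE 0.07, adjusted p = 2.66e-08).

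CCT3 had 422 and 429 RPKM in MONO, 234 and 258 in TSW and 176 and 186 in CO of RPMI8226, CCT4 had 283 and 287 in MONO, 196 and 202 in TSW and 136 and 144 in CO, and CCT7 had 337 and 347 in MONO, 242 and 261 in TSW and 192 and 188 in CO. These too ran from MONO down to CO without overlap. CCT3 fell in both cocultures, while CCT4 and CCT7 fell in CO and reached log2 fold changes of -0.51 and -0.44 in TSW, under the threshold. The CO call of CCT7 ended after correction for GC content and length, at -0.53. CCT8 had 215 and 202 RPKM in MONO, 249.7 and 206 in TSW and 222 and 220.0 in CO. Its CO libraries lay just above MONO, its TSW libraries overlapped with both, and its log2 fold changes were 0.12 (SE 0.09, adjusted p = 0.235) in TSW and 0.09 (SE 0.09, adjusted p = 0.398) in CO.

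In MM.1S the log2 fold changes of the 7 subunits ran from -0.24 to 0.28 in TSW and from -0.24 to 0.24 in CO, and limma called 0 of them in either direction. Of all tested genes 6.48% were called higher and 4.16% lower in TSW, and 7.13% and 4.65% in CO, so the counts are no result about the subunits. At an unadjusted p under 0.05, 1 subunit was higher and 1 lower in TSW and 0 and 1 in CO, and voom called 0. CCT8 had 239, 174 and 209 RPKM in MONO, 246, 246 and 259 in TSW and 229, 246 and 256 in CO there, with every TSW library above MONO.

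Among the J proteins, which bring clients to HSP70, DNAJB6 was called in both lines. MM.1S had 16.6, 12.7 and 14.8 RPKM in MONO, 9.46, 9.26 and 9.14 in TSW and 9.61, 10.5 and 11.2 in CO. MONO was above TSW and CO, and CO above TSW, without overlap. DNAJB6 fell in TSW at -0.60 (SE 0.11, adjusted p = 0.00224), and in CO it reached -0.45 (SE 0.11, adjusted p = 0.00985), under the threshold. The TSW call ended without MONO replicate 1, at -0.52. In RPMI8226 it had 12.9 and 12.3 RPKM in MONO, 4.20 and 4.16 in TSW and 5.90 and 6.12 in CO, again highest in MONO and lowest in TSW, and fell at -1.39 (SE 0.09, adjusted p = 3.1e-07) and -0.95 (SE 0.09, adjusted p = 3.3e-06).

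DNAJB4 went the other way from most of the list. In RPMI8226 it had 3.76 and 3.05 RPKM in MONO, 5.85 and 4.34 in TSW and 9.25 and 9.08 in CO. CO was highest and MONO lowest, without overlap. The CO libraries also carried genes of stromal cells, and the part of stromal RNA in the level of DNAJB4 was not tested. DNAJB4 rose in CO at 1.21 (SE 0.13, adjusted p = 1.15e-05) and was called higher in CO against TSW at 0.75 (SE 0.13, adjusted p = 0.00277). The latter call ended without TSW replicate 2, at 0.57, and without CO replicate 1, at an adjusted p of 0.0512 within a range from 0.000272 to 0.101 over the alternatives, the upper end being that with no filter. MM.1S had 2.30, 2.64 and 2.89 RPKM in MONO, 2.32, 3.70 and 2.93 in TSW and 4.83, 3.65 and 3.68 in CO, with CO above MONO, TSW overlapping with both and a log2 fold change of 0.48 (SE 0.14, adjusted p = 0.0273), called with a pseudocount of 0.1, at 0.61, and by voom, at 0.62.

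DNAJA1, a J protein of the cytosol, had 235 and 229 RPKM in MONO, 145 and 147 in TSW and 140.3 and 127 in CO of RPMI8226, and DNAJC7, which binds HSP70 and HSP90, had 32.5 and 31.0 in MONO, 20.1 and 19.1 in TSW and 17.9 and 16.5 in CO. Both were highest in MONO and lowest in CO. DNAJA1 fell at -0.66 (SE 0.07, adjusted p = 1.32e-05) and -0.79 (SE 0.07, adjusted p = 2.61e-06). Its TSW call ended with median-of-ratios scaling, at -0.58, and after correction for GC content and length, at -0.54. Both its calls ended after correction for length alone, at -0.54 in TSW and -0.50 in CO. DNAJC7 fell at -0.67 (adjusted p = 2.95e-05) and -0.85 (adjusted p = 3.65e-06).

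DNAJB1, a J protein gene that responds to heat shock, had 69.0 and 65.9 RPKM in MONO, 41.5 and 45.5 in TSW and 46.5 and 48.3 in CO of RPMI8226. MONO was above both cocultures, and CO slightly above TSW. DNAJB1 fell in TSW at -0.62 (SE 0.07, adjusted p = 3.07e-05), and CO reached -0.50, under the threshold. The TSW call ended without TSW replicate 1, at -0.56, with median-of-ratios scaling, at -0.54, and after correction for length, at -0.52, or for GC content and length, at -0.50. DNAJA2 kept log2 fold changes of -0.28 and -0.38 in RPMI8226.

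The BAG proteins release the nucleotide of HSP70, and 3 of 4 were called lower in TSW and 4 of 4 in CO of RPMI8226, beside 17.9% and 22.9% of all tested genes, with medians of -0.84 and -0.97. BAG1 had 28.9 and 28.9 RPKM in MONO, 14 and 14 in TSW and 11.9 and 13.3 in CO, BAG2 had 26.3 and 24.7 in MONO, 13.5 and 12.2 in TSW and 11.6 and 12.2 in CO, and BAG3, which responds to proteotoxic stress, had 18.2 and 17.2 in MONO, 9.77 and 10.6 in TSW and 9.26 and 8.66 in CO. In each gene MONO stood above both cocultures, and in BAG2 TSW and CO overlapped. BAG1 fell at -1 (SE 0.08, adjusted p = 2.01e-06) and -1.14 (SE 0.08, adjusted p = 5.31e-07). BAG3 fell at -0.74 (SE 0.08, adjusted p = 2.67e-05) and -0.91 (SE 0.08, adjusted p = 4.43e-06).

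BAG5 had 13.2 and 12.6 RPKM in MONO, 8.79 and 7.90 in TSW and 7.63 and 8.77 in CO of RPMI8226, with TSW and CO overlapping below MONO. It fell in CO at -0.60 (SE 0.10, adjusted p = 0.000227), a call that ended without MONO replicate 1, at -0.57, without CO replicate 1, at -0.51, and with median-of-ratios scaling, at -0.50. In TSW it reached -0.58 and was called without MONO replicate 2, at -0.61, without TSW replicate 1, at -0.65, and with a pseudocount of 0.1 and by voom, each at -0.63. In MM.1S limma called 0 BAG genes in either direction in TSW or CO against MONO, 2 were lower at an unadjusted p under 0.05 in each, 0 were higher, and voom called 1 lower in TSW, BAG2. Of all tested genes limma called 6.48% higher and 4.16% lower in TSW, and 7.13% and 4.65% in CO, so its counts are no result about the BAG genes. BAG1 in MM.1S had 50.9, 42.6 and 38.6 RPKM in MONO, 32.2, 31.5 and 29.1 in TSW and 27.3, 30.7 and 32.6 in CO, with MONO above the others, and log2 fold changes of -0.49 (adjusted p = 0.00933) and -0.52 (adjusted p = 0.00609). It was called lower in CO without MONO replicate 3, at -0.61.

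Of the 7 other cochaperones 6 were called lower in TSW and 5 in CO of RPMI8226, beside 17.9% and 22.9% of all tested genes, with medians of -1.06 and -0.82. FKBP4, an immunophilin of the HSP90 machinery of steroid receptors, had 49.2 and 47.7 RPKM in MONO, 13.9 and 17.3 in TSW and 12.0 and 12.9 in CO. The MONO libraries were far above the cocultures, and CO was below TSW. FKBP4 fell at -1.58 (SE 0.10, adjusted p = 3.48e-07) and -1.88 (SE 0.10, adjusted p = 7.34e-08). In MM.1S FKBP4 had log2 fold changes of 0.13 and 0.10.

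AHSA1, which speeds the ATPase of HSP90, had 181 and 183 RPKM in MONO, 79.5 and 95.3 in TSW and 59.7 and 59.0 in CO of RPMI8226. MONO, TSW and CO followed each other downward without overlap, and AHSA1 fell at -1.06 (SE 0.08, adjusted p = 1.95e-06) and -1.60 (SE 0.08, adjusted p = 7.24e-08). CO against TSW reached -0.54 (SE 0.08, adjusted p = 0.00169), and the gene was called lower there without TSW replicate 1, at -0.67. In MM.1S AHSA1 had 144, 139 and 130.4 RPKM in MONO, 103, 100.3 and 96.8 in TSW and 99.5, 110.1 and 97.6 in CO. MONO was above the rest, with log2 fold changes of -0.45 (adjusted p = 0.00353) and -0.42 (adjusted p = 0.00487) under the threshold.

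STIP1, which links HSP70 with HSP90, had 263 and 272 RPKM in MONO, 143 and 159.9 in TSW and 131 and 125 in CO of RPMI8226, and ST13, which binds HSP70, had 63.9 and 60.7 in MONO, 29.4 and 28.0 in TSW and 48.1 and 44.6 in CO. STIP1 was lowest in CO, while ST13 was lowest in TSW and intermediate in CO. STIP1 fell at -0.82 (SE 0.07, adjusted p = 3.94e-06) and -1.06 (SE 0.07, adjusted p = 4.15e-07). ST13 fell in TSW at -1.09 (SE 0.07, adjusted p = 5.33e-07) and was called higher in CO against TSW at 0.67 (SE 0.07, adjusted p = 0.000267). In MM.1S it had 37.0, 24.7 and 39.1 RPKM in MONO, 35.9, 32.2 and 35.3 in TSW and 38.0, 36.8 and 40.3 in CO, lowest in MONO replicate 2, the library that stood apart by RPS14P3 and trnN as the TSW libraries of RPMI8226 did.

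PTGES3, the p23 cochaperone of HSP90, had 195 and 156 RPKM in MONO, 99.1 and 73.7 in TSW and 109 and 114 in CO of RPMI8226, and CHORDC1, which binds HSP90, had 8.63 and 8.18 in MONO, 3.52 and 2.92 in TSW and 4.48 and 4.18 in CO. TSW was lowest and MONO highest for both. PTGES3 fell at -1.02 (SE 0.13, adjusted p = 7.15e-05) and -0.63 (SE 0.13, adjusted p = 0.00155), and the CO call ended without MONO replicate 1, at -0.47, with median-of-ratios scaling, at -0.52, after correction for length, at -0.49, and with no filter on low values, at an adjusted p of 0.0886 within a range from 0.000103 to 0.0886 over the alternatives. In CO against TSW it was called higher without TSW replicate 1, at 0.60. CHORDC1 fell at -1.16 (SE 0.10, adjusted p = 3.84e-06) and -0.82 (SE 0.10, adjusted p = 3.59e-05).

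CDC37, which brings kinases to HSP90, had 112 and 109 RPKM in MONO, 80.9 and 91.3 in TSW and 93.8 and 86.0 in CO of RPMI8226 and 109, 82.6 and 69.7 in MONO, 63.6, 56.2 and 56.5 in TSW and 70.7, 63.5 and 57.0 in CO of MM.1S. MONO was highest in RPMI8226, where the log2 fold changes of -0.36 and -0.30 stayed under the threshold. The latter was -0.02 after correction for length and 0.06 after correction for GC content and length. In MM.1S its MONO libraries were widely spread, and TSW reached -0.54 (SE 0.15, adjusted p = 0.0219). It was called lower there without MONO replicate 3, at -0.68, and without TSW replicate 1, at -0.59.

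HSPB1, the small heat shock protein that holds unfolded clients, was abundant in RPMI8226 and low in MM.1S. It had 594 and 609 RPKM in MONO, 368 and 460.5 in TSW and 340.2 and 352 in CO of RPMI8226 and 18.1, 11.2 and 13.4 in MONO, 17.6, 16.2 and 12.3 in TSW and 13.9, 14.2 and 11 in CO of MM.1S, and the difference between the lines, whose tables were normalized separately, was not tested. In RPMI8226 MONO was above TSW and TSW above CO. HSPB1 fell in CO at -0.80 (SE 0.09, adjusted p = 2.59e-05), a call that ended after correction for length, at -0.48, and for GC content and length, at -0.33. In TSW it reached -0.55 (SE 0.09, adjusted p = 0.00048) and was called lower without TSW replicate 2, at -0.71. In MM.1S its conditions overlapped.

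Summed over the list, the chaperone genes held 1.42% to 1.54% of all RPKM in MONO of MM.1S, 1.19% to 1.25% in TSW and 1.15% to 1.32% in CO. In RPMI8226 they held 2.32% and 2.26% in MONO, 1.06% and 1.10% in TSW and 0.951% and 0.960% in CO. MONO was above both cocultures in each line without overlap. In MM.1S the CCT genes and the mitochondrial genes, taken by role, overlapped between the conditions. The CCT genes held 0.305% to 0.332% in MONO, 0.314% to 0.334% in TSW and 0.281% to 0.339% in CO there. In MM.1S the HSP70 and HSP110 genes held 0.312% to 0.361% in MONO, 0.203% to 0.220% in TSW and 0.200% to 0.235% in CO. The cytosolic HSP90 genes alone went from 0.557% and 0.545% in MONO of RPMI8226 to 0.183% and 0.200% in TSW and 0.164% and 0.174% in CO. The HSP70 and HSP110 genes went from 0.450% and 0.436% in MONO to 0.177% and 0.190% in TSW and 0.15% and 0.152% in CO.

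**Figure D5:**
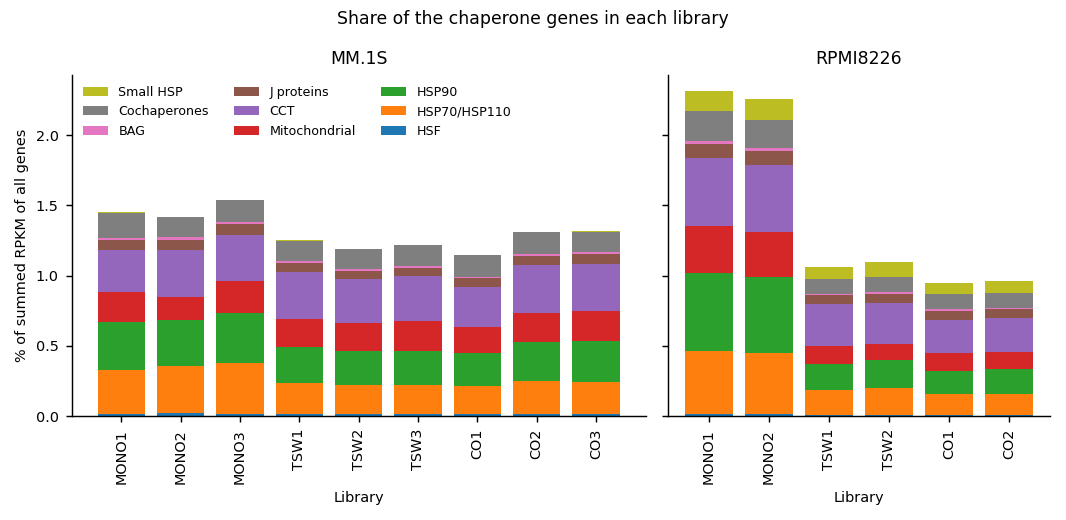
Share of the summed RPKM of all genes (vertical axis, %, from 0) held by the chaperone genes in each library (horizontal axis), stacked by role, for both lines. The bars of RPMI8226 go from 2.32% and 2.26% in MONO to 1.06% and 1.10% in TSW and 0.951% and 0.960% in CO, and those of MM.1S lie between 1.15% and 1.54%.

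Beside the 40 genes, 51 further chaperone genes were listed, of which 50 were found in the tables, 44 tested in MM.1S and 45 in RPMI8226. In MM.1S TSW against MONO 3 were called higher and limma called 0 lower, beside 6.48% and 4.16% of all tested genes, with 5 lower at an unadjusted p under 0.05 and 4 higher and 0 lower by voom, and the median was -0.01. In CO against MONO 3 were higher and 1 lower, beside 7.13% and 4.65% of all, with a median of -0.06. The shares called higher lay near those of all tested genes and are no result about the list. In CO against TSW limma called 0 in each direction, beside 0.374% of all tested genes higher and 0.0394% lower. At an unadjusted p under 0.05, 1 of the further chaperone genes was higher and 1 lower there, and voom called 0. In RPMI8226 5 were called higher and 14 lower in TSW against MONO, beside 14.5% and 17.9% of all tested genes, and 3 and 20 in CO against MONO, beside 16.4% and 22.9%. In CO against TSW 1 was called higher and 2 lower, beside 1.9% and 2.39%. The medians were -0.14, -0.40 and -0.13.

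LONP1, the protease and chaperone of the mitochondrial matrix, had 82.6, 69.5 and 58.5 RPKM in MONO, 121, 128 and 117 in TSW and 95.7, 113 and 95.8 in CO of MM.1S and 48.2 and 46.6 in MONO, 76.7 and 71.6 in TSW and 63.5 and 53.9 in CO of RPMI8226. In both lines MONO was lowest and TSW highest. LONP1 rose in TSW, at 0.80 (SE 0.13, adjusted p = 0.000994) in MM.1S and 0.63 (SE 0.09, adjusted p = 8.67e-05) in RPMI8226. DNAJC9, a J protein that handles histones, had 51.7, 41.7 and 44.7 RPKM in MONO, 29.8, 31.4 and 32.9 in TSW and 26.9, 31.0 and 32.4 in CO of MM.1S and 24.1 and 25.1 in MONO, 10.3 and 11.1 in TSW and 9.43 and 9.49 in CO of RPMI8226, with MONO above the rest in both. It fell in CO of MM.1S at -0.59 (SE 0.11, adjusted p = 0.00216) and in both cocultures of RPMI8226, at -1.13 and -1.29.

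GRPEL2, a nucleotide exchange factor of mitochondrial HSP70, had 13.9, 13.6 and 15.2 RPKM in MONO, 25.9, 27.3 and 28.1 in TSW and 32.2, 24.1 and 24.4 in CO of MM.1S, and the secreted chaperone gene CLU had 52.2, 47.9 and 41.9 in MONO, 91.7, 83.9 and 79.9 in TSW and 67.3, 76.2 and 72.1 in CO. All coculture libraries were above MONO for both. GRPEL2 rose at 0.88 (SE 0.11, adjusted p = 0.000284) and 0.86 (SE 0.11, adjusted p = 0.000318), and CLU at 0.84 (SE 0.10, adjusted p = 0.000198) and 0.60 (SE 0.10, adjusted p = 0.00186). HSF4, a further heat shock factor, had 1.65, 1.36 and 1.24 RPKM in MONO, 2.46, 2.24 and 2.71 in TSW and 3.20, 2.89 and 3.07 in CO. It ran upward from MONO to TSW to CO without overlap and rose in CO at 0.75 (SE 0.10, adjusted p = 0.00036). PAM16, of the import motor, had 4.94, 9.26 and 2.84 RPKM in MONO, 3.48, 4.39 and 3.65 in TSW and 2.23, 2.79 and 2.97 in CO, highest in MONO replicate 2, the library that stood apart by RPS14P3 and trnN, and with no call in MM.1S. PFDN5, of prefoldin, had 282, 205 and 175 RPKM in MONO, 181, 161 and 150.3 in TSW and 158, 178 and 149 in CO, and SUGT1, which works with HSP90, had 16.4, 8.98 and 12.7 in MONO, 9.66, 10.4 and 11.4 in TSW and 12.2, 11.3 and 13.5 in CO. Their conditions overlapped, and they reached -0.40 (adjusted p = 0.0843) in TSW against MONO and 0.22 (adjusted p = 0.998) in CO against TSW.

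The inducible HSP70 gene HSPA6, which shares sequence with the pseudogene HSPA7 and is uncertain for that reason, had 0.204 and 0.315 RPKM in MONO, 0.595 and 1.44 in TSW and 4.76 and 4.69 in CO of RPMI8226. CO stood well above the rest, and the TSW libraries were unequal. HSPA6 reached the level for testing only through the CO libraries, where it was high, so a difference was built in and nothing is read from its tests. Its log2 fold changes, 0.65 in TSW and 2.19 in CO against MONO and 1.54 in CO against TSW, describe the levels, and it is 1 of the further chaperone genes counted as higher in each comparison. FKBP8, an immunophilin of the outer mitochondrial membrane, had 103 and 104 RPKM in MONO, 179 and 201 in TSW and 189 and 193 in CO of RPMI8226, and the J protein gene DNAJB2 had 4.38 and 4.60 in MONO, 7.66 and 8.75 in TSW and 9.47 and 8.96 in CO. Both were lowest in MONO, and both rose in each coculture, FKBP8 at 0.86 and 0.87 and DNAJB2 at 0.74 and 0.89.

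CCT6A, a further CCT subunit, had 170.0 and 163 RPKM in MONO, 73.3 and 68.9 in TSW and 65.1 and 67.8 in CO of RPMI8226, and PDCL3, a phosducin-like protein that works with CCT, had 18.3 and 17.0 in MONO, 6.32 and 6.43 in TSW and 7.92 and 7.57 in CO. MONO was far above the cocultures for both. They fell in TSW at -1.22 and -1.34 and in CO at -1.31 and -1.09. HSPBP1, an exchange factor of HSP70, had 39.5 and 40.1 RPKM in MONO, 20.9 and 23.4 in TSW and 14.6 and 15.3 in CO, and TIMM44, which anchors HSPA9 at the import channel, had 40.6 and 40.3 in MONO, 19.6 and 20.5 in TSW and 15.4 and 15.5 in CO. Both ran downward from MONO to TSW to CO, at -1.35 and -1.33 in CO against MONO.

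TRAP1, the mitochondrial HSP90, had 131 and 127 RPKM in MONO, 91.7 and 96.6 in TSW and 60.8 and 61.4 in CO of RPMI8226, and PAM16 had 2.74 and 3.24 in MONO, 5.26 and 4.87 in TSW and 1.26 and 1.46 in CO. TRAP1 ran from MONO down to CO, while PAM16 was highest in TSW and lowest in CO. In CO against TSW TRAP1 fell at -0.62 (SE 0.06, adjusted p = 0.000227) and PAM16 at -1.36 (SE 0.11, adjusted p = 2.81e-05). PAM16 was thus highest in the libraries of each line that stood apart by RPS14P3 and trnN, whose part in its fold change was not tested. In CO against MONO, which holds none of them, PAM16 fell at -0.76 (SE 0.11, adjusted p = 9.44e-05). PFDN4, also of prefoldin, had 26.1 and 19.4 RPKM in MONO, 23.3 and 13.4 in TSW and 25.1 and 23.1 in CO, with overlapping conditions, and reached 0.42 (adjusted p = 0.153) in CO against TSW.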

How the data were processed

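RNA-seq of 15 libraries was used. The authors aligned reads to hg38 with Subread, counted PETs on RefSeq genes with featureCounts and made RPKM, and the deposited unit is log2, as log2(RPKM + 1) with 0.0001 added. The offset was subtracted. The values had been assumed to be RPKM, and limma was used as planned. Counts of PETs were worked back from the values, 100% of which came within 0.05 of a whole count where above 0. Their totals give the depth, at which 1 PET on a gene of 2 kb equals 0.02625 to 0.0555 RPKM, counting error only.

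Tests were run in limma 3.58.1 under R 4.3.3, by lmFit and by eBayes on contrasts with trend set to true, with the 3 conditions of a line in 1 fit, and every adjusted p is from limma. Replicates differed by more than sampling noise, with a chi-square per degree of freedom of 4.27 to 51.4 between libraries of a condition. Replicate number was no term in the fit.

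Alternatives were a pseudocount of 0.1, no filter, a mean of at least 5 RPKM, no fold change threshold, median-of-ratios scaling, a block for replicate number, a fit of only the pair of conditions compared, voom on the PETs, correction for length (lowess, span 0.3), correction for GC content and length (GC known for 98.8% of tested genes), and each library left out in turn. The members and lists were chosen with earlier results of these data known. Values in every library of 1 or both lines are given for genes called in at least 1 comparison, for HSF1, HSF2, HSPA8, the HSP90 genes, HSPD1, HSPA1A and HSPA1B, and for the 2 highest and 2 lowest fold changes of each comparison. Of the other chaperones, values are given for those called in both lines and the same extremes. CDC37 was added because its call changed when 1 library was left out. Genes were matched by gene ID, and HSPB11 was not matched. Chromatin accessibility was not analysed here. Python 3.11.15, pandas 2.3.3, numpy 2.4.6 and matplotlib 3.10.9 handled tables and figures.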

Additional observations from a re-analysis of the deposited data

Results flagged for a closer look

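Some genes had log2 fold changes of opposite sign in the lines, several of them not called, with every library of each coculture on one side of every MONO library in MM.1S and on the other side in RPMI8226. The log2 fold changes of HSPA1A against MONO were 0.59 in MM.1S and -0.47 in RPMI8226 in TSW, and 0.78 and -0.32 in CO. In MM.1S HSPA1A reached the level for testing only through TSW and CO, and its level apart from HSPA1B is uncertain. Nothing is therefore read from its signs. Those of HSPA9 were 0.28 and -0.72 in TSW, and 0.17 and -1.07 in CO. DNAJA3 had 0.33 and -0.45 in TSW, and 0.28 and -0.81 in CO. For DNAJA2 they were 0.15 and -0.28 in TSW, and 0.24 and -0.38 in CO. In CO against TSW, every CO library lay on one side of every TSW library in MM.1S and on the other side in RPMI8226 for HSPH1, with 0.18 in MM.1S and -0.27 in RPMI8226, and for DNAJA1, with 0.07 and -0.13. For each of these genes the difference was not tested. The share of all tested genes with opposite signs in this way was not counted, so nothing about the list is read from them.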

How the results depend on the processing

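Of 3897 values of single genes under the alternatives that kept the fold change threshold, 3833 kept their call or lack of one, 27 gained a call, 37 lost one, and no called gene changed direction. With no fold change threshold more genes passed: the counts higher and lower were 3 and 13 in MM.1S TSW against MONO, 4 and 10 in CO against MONO, 1 higher in RPMI8226 TSW against MONO and 15 lower in RPMI8226 CO against TSW. At a mean of at least 5 RPKM, the counts higher in MM.1S were 0 in TSW and 0 in CO, since HSPA1A was no longer tested. Median-of-ratios scaling gave 0 higher in MM.1S TSW. A pseudocount of 0.1 and voom each gave 2 higher in MM.1S CO, and no filter gave 1 higher in RPMI8226 CO against TSW. The correction for GC content and length, chosen after seeing the data, gave 5 lower in MM.1S TSW and 3 in CO. The cause was not tested.

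The medians moved by more than the SD of the median between replicates, 0.0474 in MM.1S and 0.0271 in RPMI8226, in some alternatives. In MM.1S CO against MONO the median was -0.06 with length and -0.17 with GC content and length corrected. In RPMI8226 TSW against MONO it was -0.73 with median-of-ratios scaling, -0.70 with length and -0.69 with GC content and length. In RPMI8226 CO against MONO it was -0.97 with a pseudocount of 0.1, -0.95 at 5 RPKM, -0.81 with scaling, -0.98 by voom, -0.84 with length and -0.86 with GC content and length. Minus the median of all tested genes, it was -0.82 in the main fit and -0.87 to -0.81 in these alternatives. In RPMI8226 CO against TSW the median of the list was -0.08 with length and -0.11 with GC content and length. The cause was not tested.

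With 1 library left out in turn, MM.1S TSW against MONO had 0 to 1 higher and 1 to 4 lower, with medians of -0.16 to -0.11. MM.1S CO against MONO had 1 higher and 1 to 3 lower, with medians of -0.18 to -0.09, and CO against TSW had 0 calls and medians of 0.01 to 0.07. RPMI8226 TSW against MONO had 0 to 1 higher and 27 to 28 lower, with medians of -0.81 to -0.79. CO against MONO had 1 higher and 27 to 30 lower, with medians of -0.94 to -0.86. CO against TSW had 2 to 4 higher and 0 to 1 lower, with medians of -0.20 to -0.14. In RPMI8226 the lone library left was assumed to vary like the other conditions. The labels name no culture that same-numbered libraries share, although the study's methods describe TSW and CO as compartments of a coculture. Their deviations from the condition means correlated at -0.38 to 0.286 in MM.1S, and at 0.164 to 0.271 in RPMI8226, where with 2 libraries a condition both numbers give the same value and pairing can be neither shown nor set aside. With replicate number as a block, the counts in MM.1S were 1 higher and 2 lower in TSW and 1 and 1 in CO, and in RPMI8226 0 and 27 in TSW, 1 and 30 in CO and 4 and 0 in CO against TSW.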
